A study of Mus musculus with 146 samples.

Results

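The Nlrp genes encode cytoplasmic proteins with a pyrin domain, an ATP-binding NACHT domain and leucine-rich repeats. Some members of the family, such as Nlrp3, sense danger and assemble inflammasomes, whereas a rodent-expanded group is known as maternal effect genes that are transcribed in oocytes and whose proteins are stored for the early embryo. Nlrp5 of that group is a core subunit of the subcortical maternal complex. It was used here for comparison and also helped to build the clusters and the order of cells below. The 10 genes described were Nlrp2, Nlrp4a, Nlrp4b, Nlrp4c, Nlrp4e, Nlrp4f, Nlrp9a, Nlrp9b, Nlrp9c and Nlrp14, taken by name among 52605 gene symbols, and all 10 had a row in the tables.

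The study profiled 146 single cells, each its own library, by full-length polyA RNA sequencing. The cells came from the ovaries of newborn C57/BL6J females (D0.5, which the study calls P0.5), at the time when germ cell cysts break down and primordial follicles form. The sample labels give the pups as those of a single litter, and the mice were neither treated nor altered genetically. No label ties a cell to a pup, so all cells are 1 sample and every comparison below is a description of these cells, without a test.

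Cell S029 had no read of Ddx4, a germ cell RNA helicase, and was left out, and in all other cells Ddx4 was between 7.49 and 542 TPM. TPM is the deposited level, scaled for transcript length and for the total of the cell. Of 6 germ cell markers, 6 were at 1 TPM or more in over 50% of the kept cells, against 0 of 7 pregranulosa and 0 of 6 stromal markers. Of 7 markers of blood and endothelium, 2 were, and these were the haemoglobin genes Hba-a1 and Hbb-bs. The summed level of the blood markers had a median of 57.9, 51.6 and 24.2 TPM in clusters 1, 2 and 3 below. In single cells of these clusters it reached 165081, 27108 and 21394 TPM, and its part in the results was not tested. The pregranulosa sum reached 14.8, 17 and 2.32 TPM in these clusters and the stromal sum 264, 383 and 21.9 TPM. The estimated reads per cell ranged from 4074810 to 26855273.

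Cells were placed in 3 rebuilt clusters with 19 genes of meiosis and oocyte growth, none of them among the 10 Nlrp genes. Of these genes, the meiotic Sycp2, Stag3 and Taf7l had their highest means in cluster 1 (19 cells) and the zona pellucida genes Zp1, Zp2 and Zp3 in cluster 3 (35 cells), with cluster 2 (91 cells) between. Sycp3, a meiotic gene outside the 19, had a mean of 2122, 3093 and 1810 TPM in clusters 1, 2 and 3 and so was highest in cluster 2. The first component of the same genes gave an order of cells, which was divided into 5 bins of 29 cells. This order is one of expression at a single age and not of time.

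Of the 10 genes, 9 lie on chromosome 7 and 1 on chromosome 13 of GRCm38 (GENCODE M21). Nlrp2 is at chr7:5298547-5351035 and Nlrp4c, 694 kb further, at chr7:6045161-6105150. Nlrp4b is at chr7:10687789-10730168 and Nlrp9b at chr7:19991465-20073306. Nlrp4e (chr7:23301192-23362277) and Nlrp5 are neighbours, 23.6 kb apart with 0 coding genes between them. Nlrp9c (chr7:26322473-26403700), Nlrp4a (chr7:26435113-26476142) and Nlrp9a (chr7:26535023-26575615) form a second group, with gaps of 31.4 and 58.9 kb and 0 coding genes in them. Nlrp14 stands alone at chr7:107166990-107198102, and Nlrp4f is at chr13:65177111-65205977 on the minus strand.

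The promoters are shown because those of the Nlrp4 genes share an E-box, although the levels of these genes, given below, differ widely. FIGLA, the oocyte factor that acts on the zona genes, pairs with another bHLH protein to bind E-boxes, of the form CANNTG, and NOBOX, another such factor, binds TAATTA and TAATTG. RefSeq promoters (GRCm38.p6, 250 bases before to 50 after each start) were found for 9 of the 10 genes, 11 promoters in all; none was at hand for Nlrp14. The E-box CAGCTG was present in a promoter of 5 of the 5 Nlrp4 genes among the 10, against 16.3% of the 32851 promoters in the table. No promoter of Nlrp2, Nlrp9a, Nlrp9b or Nlrp9c held it. Here and below, matches are counted per gene and the shares per promoter, and a gene with 2 promoters could match in either. The E-box is not particular to the Nlrp4 genes, since 1 of the 2 promoters of Nlrp5 holds it at -145 and -107 from the start. CAGCTG reads the same on both strands and is itself a CANNTG match, as is CACGTG. The stretches around it follow, each in the direction of transcription, with CAGCTG in capitals.
Nlrp4a, chr7:26435542-26435647, plus strand: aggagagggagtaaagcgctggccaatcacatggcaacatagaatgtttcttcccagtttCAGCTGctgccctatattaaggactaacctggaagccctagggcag
Nlrp4b, chr7:10687717-10687822, plus strand: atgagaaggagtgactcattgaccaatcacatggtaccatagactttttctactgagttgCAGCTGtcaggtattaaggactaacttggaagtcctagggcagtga
Nlrp4c, chr7:6045120-6045210, plus strand: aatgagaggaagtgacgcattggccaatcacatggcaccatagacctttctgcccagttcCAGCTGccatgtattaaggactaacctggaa
Nlrp4e, chr7:23301130-23301235, plus strand: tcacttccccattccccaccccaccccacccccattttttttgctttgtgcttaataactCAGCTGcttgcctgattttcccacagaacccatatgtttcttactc
Nlrp4f, chr13:65205667-65205734, minus strand: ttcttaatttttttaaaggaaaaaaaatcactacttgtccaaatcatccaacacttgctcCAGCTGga

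Nlrp4a, Nlrp4b and Nlrp4c share more than the E-box. The run ccaatcacatgg, which holds a CCAAT box and another E-box, lies 26 bases before CAGCTG in Nlrp4a and Nlrp4b and 25 bases before it in Nlrp4c. The run tattaaggactaac follows it after 8 bases in Nlrp4a and 5 in Nlrp4b and Nlrp4c. The first run was found in 7 of the 32851 promoters, from 6 genes, and the second in 4, all of them from these 3 genes. These runs were picked after the promoters had been read, and gene copies that share a promoter are not independent matches.

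The window of Nlrp4f is not placed like those of the other genes. Its start site, 65205716, is the outer end of the GENCODE model Nlrp4f-201, while Nlrp4f-204 begins upstream, at 65205968. The window holds cctagggcagtgagtcagcaaatctt, 26 bases that it shares with Nlrp4a, which begin at -231 from the Nlrp4f start but at 25 from the Nlrp4a start. The CAGCTG of Nlrp4f, at 43 from its start, lies outside the block of Nlrp4a, Nlrp4b and Nlrp4c. Another promoter of Nlrp4a has a CAGCTG at -80 without the block, and the Nlrp4e match, at -2, has neither run beside it.

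TAATTA was found in 1 of the 9 genes with a promoter, Nlrp9a, against 5.29% of all promoters, and TAATTG in Nlrp9a and Nlrp9b, against 8.0%. CACGTG was found in 0 of 9, against 7.15%, the TATA box TATAAA only in Nlrp9b, against 13.6%, and CANNTG in 8 of 9, against 72.3%. The promoters of Nlrp9a and Nlrp9c are alike over a long shared run. A match says only that these letters stand in this window.

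Levels fell over 5 orders of magnitude from Nlrp4f to Nlrp9a. Over all kept cells the mean was 286 TPM for Nlrp4f (SD 369), 24.8 for Nlrp14 (SD 60.02), 7.97 for Nlrp4c (SD 37.2) and 1.70 for Nlrp4b (SD 12.8). It was 0.561 TPM for Nlrp4a, 0.348 for Nlrp2, 0.315 for Nlrp4e and 0.122 for Nlrp9b. Nlrp9c and Nlrp9a stood at 0.0018 and 0.0013 TPM. These SDs are over cells. In 110 cells Nlrp4f was above Nlrp14, and in 4 it was below. Nlrp14 was above Nlrp4c in 58 cells and below it in 29. From Nlrp4b downward the order rests on few cells, and the median of each of these 7 genes was 0 TPM. Nlrp4f alone made up 88.9% of the TPM summed over the 10 genes and 74.5% of their reads.

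**Figure D1:**
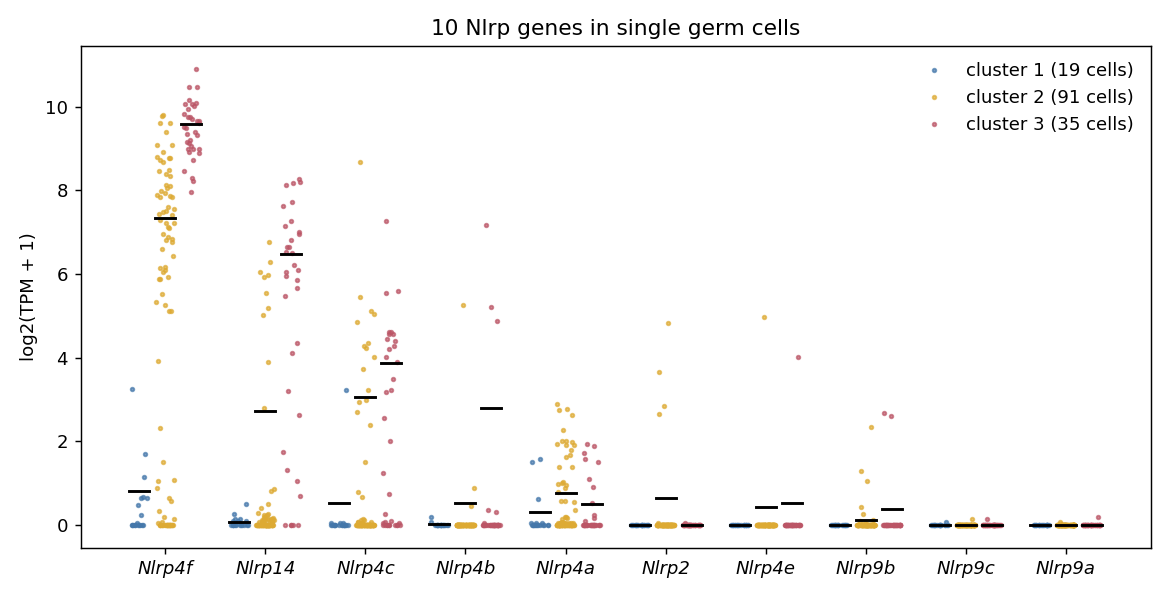
Level of each of the 10 genes, as log2(TPM + 1), with 1 point per cell, in clusters 1 (19 cells), 2 (91 cells) and 3 (35 cells), and a black bar at the mean TPM of the cluster on the same scale. Nlrp4f separates clusters 1 and 3 without overlap, Nlrp14 and Nlrp4c spread from 0 upward within clusters, and Nlrp9a and Nlrp9c stay near 0.

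How far Nlrp4f stands above the rest depends on the length used. GENCODE M21 lists 8 Nlrp4f transcripts of 458 to 3551 bases, several of them partial. From the reads and TPM of each of the 95 cells with at least 20 reads, the length that links them was 900 bases at the median and between 345 and 3464. It had a median of 1073 bases in the cells of cluster 2 and 726 in those of cluster 3. It is an effective length, which for Nlrp4f went below the shortest model, so it does not name a transcript. For Nlrp14 this length was 1496 bases at the median (1202 to 3185, 41 cells). In 20 of these cells it was under 1437 bases, the length of Nlrp14-202, the shorter of 2 models. For Nlrp4c it was 3549 bases at the median (3022 to 3681, 37 cells), close to its longest transcript of 3615 bases. As CPM (reads of a gene per 1000000 reads of the cell) divided by the kb of the longest transcript, the means were 65.8 for Nlrp4f, 13.6 for Nlrp14 and 6.40 for Nlrp4c. Nlrp4f then exceeded Nlrp14 by 4.84-fold, against 11.5-fold in TPM, and Nlrp14 exceeded Nlrp4c by 2.13-fold, against 3.11-fold.

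**Figure D2:**
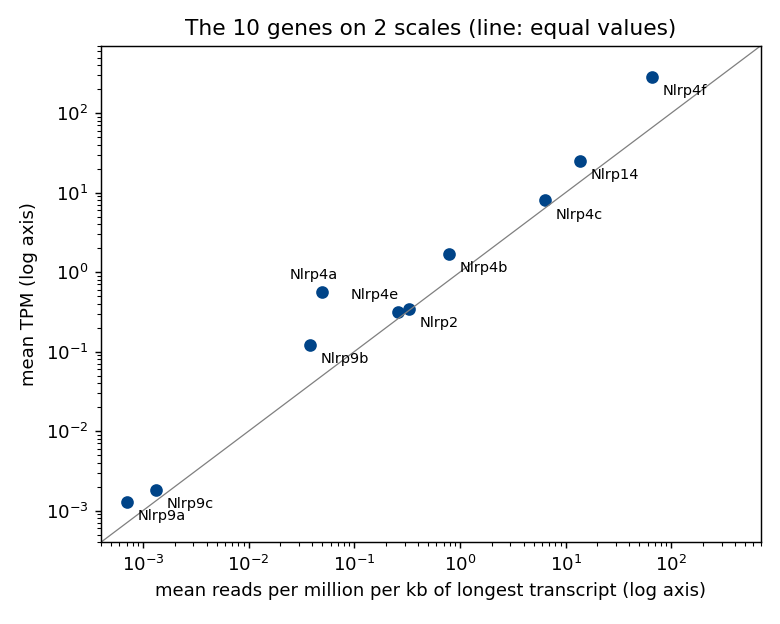
Mean TPM of each of the 10 genes (vertical, log axis) against mean CPM per kb of its longest transcript (horizontal, log axis) over all kept cells, with a line of equal values. Nlrp4f lies at 286 against 65.8 and Nlrp4a at 0.561 against 0.050, above the line, and Nlrp4c, at 7.97 against 6.40, close to it.

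Near-identical copies limit some of these values. Of the 31-base words in the transcripts of Nlrp4e, 52.8% occur in another gene, most of them in Gm16443. The share was 22.1% for Nlrp4c, most of it with Nlrp4e, 15.95% for Nlrp4f, most of it with Nlrp4g, and 0% for Nlrp14. Nlrp4a had a fractional count, over 0.01 from a whole number, in 24 of the 58 cells with a read, so these reads were divided between transcripts of several genes. Nlrp4f had one in 3 cells, Nlrp9b in 2, and the other 7 genes in 0 cells.

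Nlrp4f, which has been linked to the maternal complex and to organelle placement in oocytes, had the highest mean of the 10 genes in every bin along the order and was the first found at 1 TPM in 50% or more of a bin's cells, although in bin 1 Nlrp4a was at 1 TPM in 24.1% of cells and Nlrp4f in 20.7%. It averaged 0.747 TPM over the cells of cluster 1 (median 0, highest 8.47). Cluster 2 had a mean of 160 TPM (median 69.7, highest 896). The 35 cells of cluster 3 lay between 250 and 1927 TPM, around a mean of 768 and a median of 721. All 35 cells of cluster 3 were above all 19 cells of cluster 1, while cluster 2 overlapped both. By mean TPM, Nlrp4f ranked 11745 of 19779 coding genes in cluster 1, then 939 and finally 130. These ranks carry the short length behind its TPM, which was shorter in cluster 3 than in cluster 2. As CPM per kb of the longest transcript, its means were 0.188, 44.2 and 158 in clusters 1, 2 and 3.

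Within cluster 2 the gene ranged from no read to high levels. Of the 91 cells, 22 were at 0 TPM, 8 were above 0 and under 1, 4 were between 1 and 10, 15 were between 10 and 100, and 42 were at 100 or more. The share at 1 TPM or more for cluster 1 was 15.8% (exact binomial 95% interval 3.38 to 39.6), for cluster 2 it was 67.03% (56.4 to 76.5) and for cluster 3 100% (90 to 100). Intervals here cover counting error only. After thinning each cell to 1000000 reads, the share with a read was 31.6%, 68.1% and 100%, against 47.4%, 75.8% and 100% before.

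By bin, the median Nlrp4f level was 0, 0.147, 149, 335 and 736 TPM, and the share of cells at 1 TPM was 20.7%, 41.4%, 82.8%, 96.6% and 100%. Bin 3 was the first with at least 50% of cells. How many cells had Nlrp4f without a gene of oocyte growth differed with that gene. Of 99 cells with Nlrp4f, 44 lacked Padi6 at 1 TPM, 49 lacked Zp3 and 16 lacked Zp2, whereas 3 cells had Padi6 without Nlrp4f, 2 had Zp3 and 8 had Zp2 without it. Padi6 encodes an enzyme-like protein of the cytoplasmic lattices, and Zp2 and Zp3 encode zona proteins and were used to build the order. Among cells with Nlrp4f, 95 of 99 had Tle6, a maternal complex subunit, but 36 cells had Tle6 without Nlrp4f.

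**Figure D3:**
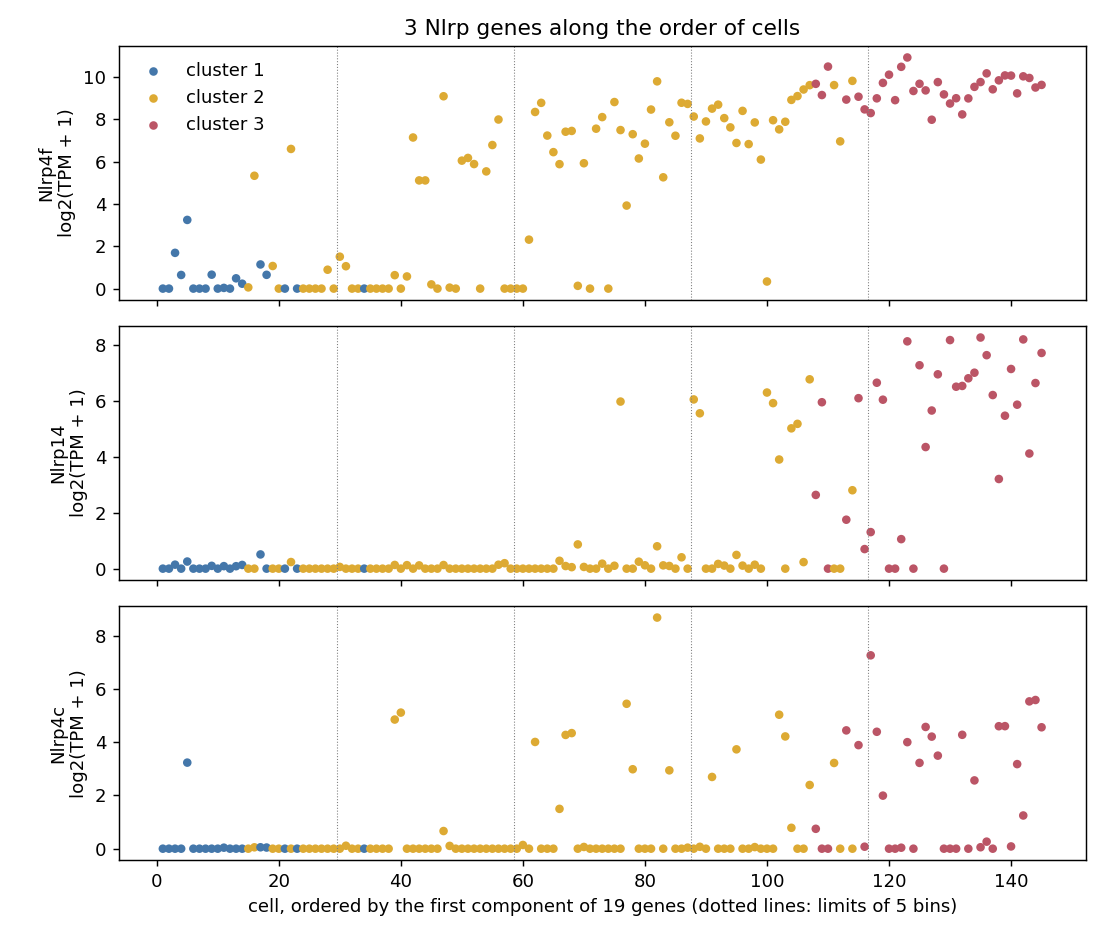
Level of Nlrp4f, Nlrp14 and Nlrp4c as log2(TPM + 1) in each kept cell, placed by rank along the order made from 19 other genes and coloured by cluster, with dotted lines at the limits of the 5 bins. The median of Nlrp4f is 0.147 TPM in the second bin and 149 TPM in the third, Nlrp14 is at 1 TPM or more in 44.8% of the cells of the fourth bin and 86.2% of the fifth, and Nlrp4c is scattered.

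Nlrp14, a gene known to be needed by the embryo from the egg, was detected further along the order than Nlrp4f and, in all but 1 cell at 1 TPM, together with it. Its highest level in cluster 1 was 0.422 TPM, around a mean of 0.053. The cells of cluster 2 averaged 5.61 TPM (median 0, highest 108.3) and those of cluster 3 averaged 88.1 TPM (median 64.97, highest 307). Clusters overlapped at the low end, since 6 of the 35 cells of cluster 3 were under 1 TPM. The share at 1 TPM was 0 of 19 cells in cluster 1, for which a limit of 3 counts allows a share of up to 15.8% and the exact interval one of up to 17.65%, then 10.99% (5.40 to 19.3) of cluster 2 and 82.9% (66.4 to 93.4) of cluster 3. By bin it was 0%, 0%, 3.45%, 44.8% and 86.2%, so that bin 5 was the first with at least 50% of cells. Thinned to 1000000 reads, a read was found in 0%, 17.6% and 82.9% of the cells of clusters 1, 2 and 3, against 36.8%, 40.7% and 85.7% before.

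Of the 39 cells with Nlrp14, 38 also had Nlrp4f, and 61 cells had Nlrp4f without Nlrp14. The remaining cell, cell S013 of cluster 2, had Nlrp14 at 77.8 TPM and Nlrp4f at 0.261 TPM. Of the 39 cells, 35 had Padi6, 33 had Zp3, 31 had Oas1e and 14 had Nlrp5, the maternal complex gene of the same family. Nlrp5 was at 1 TPM or more in 40 cells, 26 of which lacked Nlrp14.

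Nlrp4c, another maternally expressed paralogue, was scattered over cells of all 3 clusters and was found in more cells toward the end of the order. Its mean went from 0.448 TPM over 7.32 to 13.7 TPM. The first of these came almost entirely from cell S098, at 8.42 TPM, which also had the highest Nlrp4f level of that cluster. The share at 1 TPM was 5.26% (0.133 to 26.03), 17.6% (10.4 to 26.98) and 54.3% (36.7 to 71.2) in clusters 1 to 3. By bin it was 3.45%, 6.90%, 27.6%, 27.6% and 58.6%.

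A single cell carried much of the cluster 2 level of Nlrp4c. Cell S017, the most deeply sequenced of bin 3 with 17440741 reads, had 412 TPM from 16362 reads, or 61.8% of the Nlrp4c TPM summed over cluster 2. The next cell overall was cell S010 of cluster 3, at 153 TPM. The mean of bin 3 was 18.03 TPM with cell S017 and 3.97 without it, against 15.4 in bin 5. Of the 36 cells with Nlrp4c, 34 had Nlrp4f, 21 had Nlrp14, and 11 had Nlrp5.

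**Figure D4:**
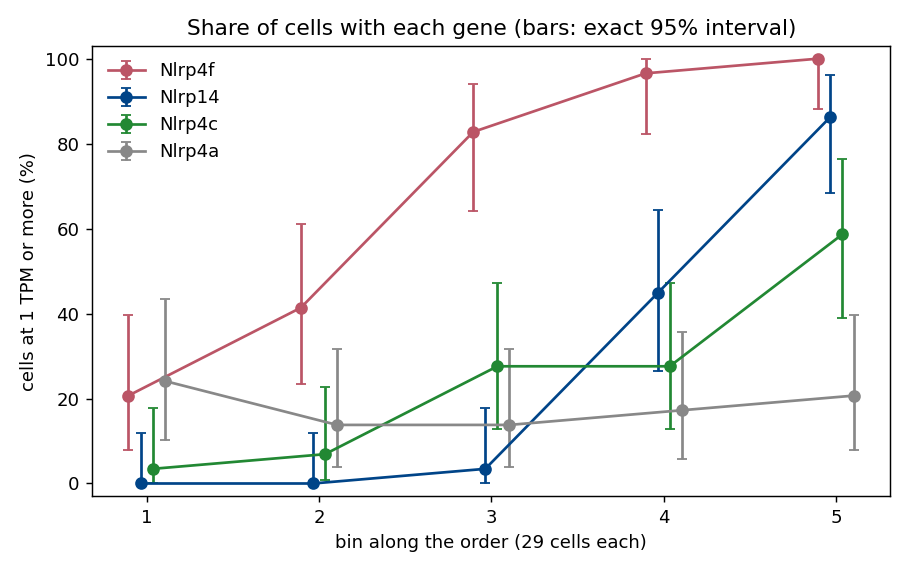
Percent of the 29 cells of each bin at 1 TPM or more, for Nlrp4f, Nlrp14, Nlrp4c and Nlrp4a, with exact binomial 95% intervals that cover counting error. Nlrp4f passes 50% in bin 3, Nlrp14 and Nlrp4c in bin 5, and Nlrp4a stays between 13.8% and 24.1%.

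Nlrp4a, which has the promoter block of Nlrp4b and Nlrp4c, had 292 reads in all over the kept cells. It was listed at 1 TPM or more in 10.5%, 19.8% and 17.1% of the cells of clusters 1, 2 and 3, with a highest level of 6.42 TPM from 9 reads in cell S007. After thinning, 12.4% of cells had a read, against 40% before. Levels built on so few and partly fractional reads cannot be ordered between clusters.

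Nlrp4b, Nlrp2 and Nlrp4e had no read in most cells and many reads in a few. Nlrp4b was at 1 TPM or more in 4 cells, with 142.7 TPM in cell S021 (2177 reads), 37.5 in cell S133, 35.99 in cell S137 and 28.4 in cell S093. Cell S133 belonged to cluster 2 and the other 3 to cluster 3. All 4 cells had Nlrp4f, at 264 to 1419 TPM. Without cell S021 the log2 ratio of Nlrp4b between clusters 3 and 2 dropped from 2.28 to 1.03.

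Nlrp2, a maternal effect gene with a part in imprinting, was at 1 TPM or more in 4 cells, all in cluster 2, and had a single read in each of 2 other cells. Cell S066 had 27.4 TPM (464 reads), cell S074 had 11.5, cell S118 had 6.17 and cell S040 had 5.30. In cells S066 and S074 Nlrp4f, Nlrp14, Padi6 and Zp3 were all at 0 TPM, while Nlrp4f was at 541 TPM in cell S118 and 178 in cell S040. The germ cell markers of cell S066 summed to 2023 TPM, and its pregranulosa markers to 8.79 TPM, against a median of 0.405 over all cells. In cell S074 the pregranulosa sum was 0 TPM.

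Nlrp4e was found in 2 cells, with 30.5 TPM from 1011 reads in cell S127 and 15.1 TPM from 592 reads in cell S134. Its neighbour Nlrp5 was at 327 and 154 TPM in these cells, and Nlrp4c, which shares words with it, was at 0 TPM in cell S127 and 18.5 TPM in cell S134. No other cell had a read of Nlrp4e, and 38 of the 40 cells with Nlrp5 at 1 TPM or more lacked it.

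The Nlrp9 genes, of which Nlrp9b is known from the gut epithelium as a sensor of viral RNA, were close to silent. Nlrp9b was at 1 TPM or more in 5 cells, of which cell S077 held 233 of its 272 reads, at 5.05 TPM. Cell S091 stood at 5.41 TPM, but from 12.8 reads. Nlrp9a had 3 reads in 2 cells and Nlrp9c 6 reads in 3 cells. For both, 0 of the kept cells reached 1 TPM, which allows a share of up to 2.07% by a limit of 3 counts and 2.51% by the exact interval.

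The 6 genes below Nlrp4c other than Nlrp4a were therefore scattered. They reached 1 TPM in 15 cells, none of which had more than 1 of them. Of the 15 cells, 9 were in cluster 2, 6 in cluster 3 and none in cluster 1. Counting all 10 genes, a cell had 1 of them at the median, and by cluster the median was 0, 1 and 3, with at most 5, in 1 cell. In 33 cells none of the 10 genes reached 1 TPM.

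The comparison between clusters asks which of the 10 genes differ with the state of the germ cell. It was made as the log2 ratio of mean TPM with 1 TPM added to both means, and a gene was called higher at 1.5-fold or more. From cluster 1 to cluster 2, 4 of the 10 were higher (Nlrp4f, Nlrp14, Nlrp4c and Nlrp2) and 0 lower, where 24.8% of 11759 coding genes with a mean of at least 1 TPM were higher and 20.9% lower. From cluster 2 to cluster 3, 4 were higher (Nlrp14, Nlrp4b, Nlrp4f and Nlrp4c) and 1, Nlrp2, lower, against 16.9% of the coding genes higher and 29.9% lower. From cluster 1 to cluster 3, 4 were higher (Nlrp4f, Nlrp14, Nlrp4c and Nlrp4b) and 0 lower, against 27.2% higher and 35.7% lower. Only 4 of the 10 genes passed the filter on the mean that the background used, Nlrp4f, Nlrp14, Nlrp4c and Nlrp4b.

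The sizes differed more than the counts. The Nlrp4f ratio was 6.53 between clusters 1 and 2 and 2.26 between clusters 2 and 3. In CPM, which uses no length, these were 6.56 and 1.83. When log2(TPM + 1) was averaged per cluster, the steps of Nlrp4f were 4.31 and 4.67, the larger one last, and when cells were clustered on the 2000 most variable genes instead, its ratios were 3.50 and 1.24. For Nlrp14 it was 2.65 and then 3.75, so that the larger step came later, but with a pseudocount of 0.1 TPM it was 5.22 and 3.95, which puts the larger step first. With log2(TPM + 1) averaged per cluster, Nlrp14 had steps of 0.58, just under the call, and 4.21. For Nlrp4c it was 2.52 and 0.83, and without cell S017 it was 1.40 and 1.95, which turns the order of the steps around. Without cell S010 the second ratio of Nlrp4c was 0.35, below the call. Per spike-in the Nlrp4c steps were 1.72 and 2.04, also with the larger one last, and on the variable-gene clusters the second was 0.11, below the call. The Nlrp4b ratio of 2.28 between clusters 2 and 3 rests on 4 cells, and with averaged log2(TPM + 1) it was 0.44, and 0.50 from cluster 1 to cluster 3, both below the call. The Nlrp2 ratios of 0.64 and -0.63 rest on 4 cells of cluster 2, since Nlrp2 had no read in cluster 1. Without cell S066 these were 0.33 and -0.33, and with Ward clusters the first was -0.93. The median ratio of the 10 genes was 0.47, 0.18 and 0.45 in the 3 comparisons, against 0.01, -0.21 and -0.17 over all coding genes tested. Without the filter on the mean, the medians over 19779 coding genes were 0, -0.003 and 0. Over the 4 of the 10 genes that passed the filter, they were 2.59, 2.27 and 4.875.

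**Figure D5:**
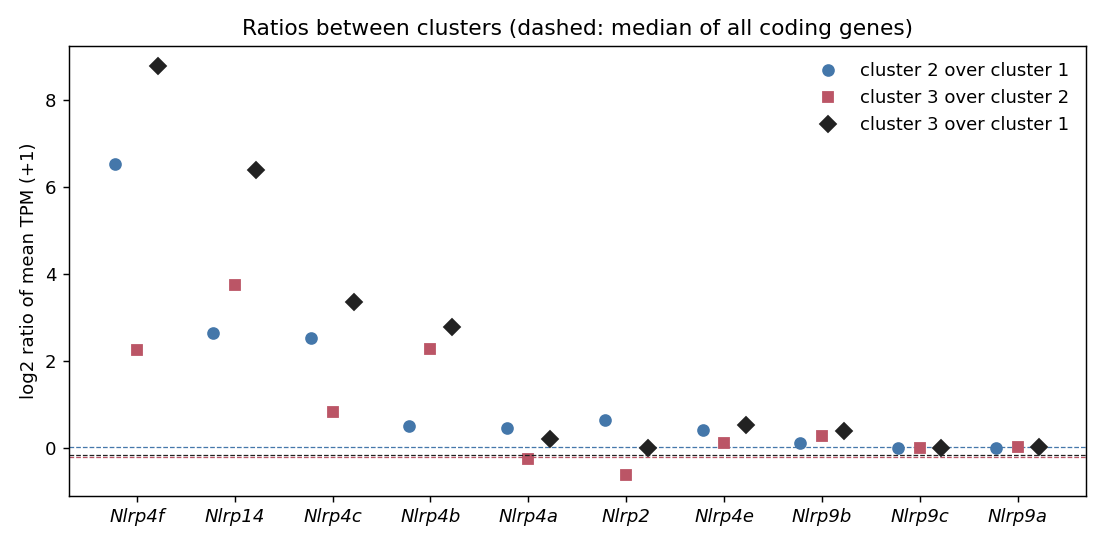
Log2 ratio of mean TPM, with 1 TPM added, of each of the 10 genes between clusters (circles, cluster 2 over 1; squares, cluster 3 over 2; diamonds, cluster 3 over 1), with dashed lines at the median of all coding genes tested. Nlrp4f is highest at 6.53 for the first step and Nlrp14 at 3.75 for the second, and Nlrp9a and Nlrp9c lie next to 0 in all 3 comparisons.

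The other genes of the pathway were taken as lists. Of 6 maternal complex genes, Nlrp5, Ooep, Tle6, Khdc3, Padi6 and Zbed3, 5 were higher in cluster 2 than in cluster 1 and 6 were higher in cluster 3 than in cluster 2, against 24.8% and 16.9% of coding genes, though Nlrp5 and Ooep helped to build the clusters. The mean level of Padi6 was 0.361 TPM in the first cluster, 47.1 in the second and 898 in the third. The median of Tle6 went from 65.9 over 217 to 738 TPM, and the mean of Khdc3, another subunit, from 2.28 over 2.10 to 94.2 TPM. Of 5 Oas1 genes, from the oligoadenylate synthetase family, 2 were higher in cluster 2 than in cluster 1. From cluster 2 to cluster 3, 4 were higher, beside the same shares of coding genes. Oas1g, 1 of the 5, had 2 reads in 1 cell and was at 1 TPM in 0 cells. The zona genes were used to build the clusters and give no comparison. Of the 5 follicle factors, Figla, Nobox, Lhx8 and Sohlh1 were used as well and give none either. Sohlh2, the only other, was lower at both steps, with log2 ratios of -0.69 and -0.69. Of the coding genes, 20.9% and then 29.9% were lower.

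The other NLR genes, the immune ones among them, were mostly low, as were most of the 10 genes. Of 17 measured and coding, among them Nod1, Nod2 and Nlrc4, 4 had a mean of at least 1 TPM. Of all 19779 coding genes, 11759 had such a mean. None of the 17 was at 1 TPM or more in over 50% of cells, and 3 (Nlrp1a, Nlrp1b and Nlrp3) reached it in no cell. Nlrx1 was at 1 TPM or more in 45 cells and Nod2 in 35, beside 39 for Nlrp14 and 36 for Nlrp4c. Of the 17, 1 was higher and 3 lower from cluster 1 to cluster 2, where 24.8% and 20.9% of coding genes were. From cluster 2 to cluster 3, 2 were higher and 1 lower (16.9% and 29.9% of coding genes), and from cluster 1 to cluster 3, 4 were higher and 4 lower (27.2% and 35.7%). Of 9 inflammasome partners, Il18 was at 1 TPM or more in 77.9% of cells. The inflammasome protease gene Casp1 and the cytokine gene Il1b had no read, and Pycard, its adaptor, was at 1 TPM or more in 27 cells. Of the 9 partners, 1 was higher and 1 lower in the first of these comparisons, 1 higher and 2 lower in the second, and 0 higher and 2 lower in the third.

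Over the 45 pairs the Spearman rho had a median of 0.04, and 4 pairs were over 0.3. These were Nlrp4f with Nlrp14 (0.64), Nlrp4c with Nlrp14 (0.46), Nlrp4c with Nlrp4f (0.45) and Nlrp4b with Nlrp9c (0.31), the last from genes with few cells. Within cluster 1 (19 cells) 15 pairs had a rho, with a median of 0.15, and it was 0.82 for Nlrp4f and Nlrp14, the latter with 12 reads in all there. Within cluster 2 the median was 0.03 and the Nlrp4f and Nlrp14 rho was 0.47, and within cluster 3 they were -0.03 and 0.14. All pairs share the libraries and their depth, and most genes are at 0 in most cells, so a rho near 0 says little.

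Along the order of cells rho was 0.84 for Nlrp4f, 0.63 for Nlrp14, 0.44 for Nlrp4c and 0.14 for Nlrp4b, and between -0.04 and 0.10 for the other 6. With an order made from the 2000 most variable genes these were 0.83, 0.63, 0.42 and 0.15. The reads per cell, which the clusters share unequally (medians of 9615238, 8965502 and 10711092), had a rho of 0.40 with Nlrp4f, 0.36 with Nlrp14 and 0.20 with Nlrp4c, against a median of 0.06 over all coding genes tested, and their part in the order was not tested. Within cluster 2, Nlrp4f still had a rho of 0.71 with the order and Nlrp14 one of 0.47. Within cluster 3 these were 0.24 and 0.48.

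The genes most like the 10 over cells were picked by the Spearman rho with the mean log2(TPM + 1) of the 10 genes. That mean mostly follows Nlrp4f, with a rho of 0.91. The search covered 11736 coding genes outside the 10 and the 19 genes of the order. The highest were Ldhb, a lactate dehydrogenase subunit (0.82), Tmsb10, an actin-binding thymosin (0.80), and Dppa3, the maternal factor also called Stella (0.80). Zbed3, a maternal complex protein (0.76), and Ube2c, a ubiquitin-conjugating enzyme (0.76), followed. For single genes the closest were Ldhb for Nlrp4f (0.84), Oas1e for Nlrp14 (0.69) and Padi6 for Nlrp4c (0.49). For Nlrp4a the highest rho was 0.35, with Smpd4.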

How the data were processed

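Smart-seq2 libraries of 146 single ovarian germ cells, with ERCC spike-ins added, were sequenced. The authors quantified reads with Salmon on mm10, per the labels, and deposited for each cell and gene symbol the TPM and an estimated count of reads, which need not be whole. Cells are called by the number in their label. The listed lengths vary between cells, so the effective length behind each TPM was computed from TPM and reads. This used a constant per cell, the median over those of the 92 spike-ins that had enough reads in it. Cells with Ddx4 at 1 TPM or more were kept. The clusters come from Seurat 5.3.0 under R 4.3.3, run on the deposited TPM of 14058 coding genes at 0.1 TPM in at least 10 cells, with 10 components of 19 marker genes. The study used 20, taken here as those of its text and Taf4b, which its plots of these genes show, and Nlrp14 was left out as one of the 10 genes described. The clustering used 20 neighbours and a resolution of 0.2, the lowest tried that split the cells in 3. Ratios, shares and rho were computed in Python 3.11.15 with SciPy 1.17.1, and the code was tested on simulated data. Cells are not replicates, so no test was run and p-values are not given. The genes named were the 10 genes, the listed comparison genes, the 5 coding genes with the highest rho with the mean of the 10, and the closest gene of each member with at least 10 cells at 1 TPM. The 10 genes and the lists were chosen with earlier results of these data known. The alternatives tried changed the pseudocount, scaling, clustering, cells kept and threshold. Symbols (24296) without a match to a gene table were left out of the coding genes.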

Additional observations from a re-analysis of the deposited data

How the results depend on the processing

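The Nlrp4f and Nlrp14 ratios were positive in each of the 3 comparisons between clusters under every alternative run. With a pseudocount of 0.1 TPM, 8 genes were called higher from cluster 1 to 2 and 7 from cluster 1 to 3, with median ratios of 2.19 and 2.20, as the scarce genes then count; with mean log2(TPM + 1), 1 gene, Nlrp4f, was called from cluster 1 to 2, and Nlrp14 (0.58), Nlrp4c (0.57) and Nlrp2 (0.15) were not. Scaled to the spike-ins, the median ratio was 0.77 for cluster 3 over 2 and 1.05 for cluster 3 over 1, and the median of all coding genes moved to 0.56 and 0.41. On that scale 3 genes were called higher from cluster 1 to 2, 6 from cluster 2 to 3 and 6 from cluster 1 to 3. From cluster 1 to 2, 6 were called in CPM and 6 on the variable-gene clusters. Without the filter on the mean, 16.7%, 12.6% and 19.2% of the 19779 coding genes were higher in the 3 comparisons. The Nlrp2 ratio of cluster 2 over 1 was -0.93 with Ward clusters; the cause was not tested. At 0.1 TPM the median number of genes per cell was 2. The bin with the highest Nlrp4c mean was 2 in the variable-gene order, 5 in CPM and 5 per spike-in, and without cell S017, an alternative chosen after seeing the data, the mean of bin 3 was 3.97 TPM. Leaving out 1 cell at a time gave 3 to 4 genes higher from cluster 1 to 2, where cell S066 takes Nlrp2 away, and 3 to 4 from cluster 2 to 3, where cell S010 takes Nlrp4c away. No paired analysis was possible because all cells are 1 group. All values describe the cells of a single litter.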

Other observations

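The cell left out, cell S029, had 1408459 reads, fewer than any cell kept. Ddx4, Nlrp4f and Nlrp14 were at 0 TPM in it, but 4 of the 10 genes were listed at 1 TPM or more. Nlrp9b stood at 394 TPM from 158 partly fractional reads and Nlrp4b at 49.5 TPM from 189 reads, while the highest Nlrp9b level among the cells kept was 5.41 TPM. Nlrp4c was at 30.8 TPM from 10 reads. With all cells kept, the Nlrp4b ratio of cluster 2 over cluster 1 was -1.29, against 0.50 without cell S029. That of cluster 3 over cluster 1 was 1.03, against 2.78. The Nlrp4c ratio was 1.475 for cluster 2 over cluster 1, against 2.52, and 2.35 for cluster 3 over cluster 1, against 3.35.

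Cell S091, in cluster 3, was the cell with 5 of the 10 genes at 1 TPM or more, with Nlrp4f at 1070, Nlrp14 at 43.3, Nlrp4c at 23.4, Nlrp9b at 5.41 and Nlrp4a at 2.00 TPM. Its blood markers summed to 15266 TPM, against a median of 24.2 in cluster 3.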
